A study of Mus musculus with 6 samples.

Results

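The guanylate-binding proteins (GBPs) of the mouse were followed in MuTuDC1940 cells, a mouse dendritic cell line, with and without poly(I:C), a synthetic double-stranded RNA that mimics viral RNA. The members are the 9 genes Gbp2, Gbp2b, Gbp3, Gbp4, Gbp5, Gbp6, Gbp7, Gbp8 and Gbp9, taken by name out of 32903 gene symbols, and each was found in the deposited table. There are 3 samples of each kind, all of this one line; treatment lasted 18 hours at 5 µg/ml poly(I:C), and polyadenylated RNA was sequenced. The header of the table settles the group of 4 libraries, headed NT01 and NT02 (untreated) and PolyIC01 and PolyIC02 (treated), so all values below have n = 2 libraries per group. Levels are in TPM, a measure of transcript abundance per length, scaled so that each library has the same total.

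GBPs are large GTPases of the dynamin superfamily that cells make in response to interferons. In infected cells they bind GTP, assemble into coats on the vacuoles of parasites and bacteria or on bacteria in the cytosol, and help to break these membranes open. The released microbial DNA and lipopolysaccharide can then reach the inflammasome sensors AIM2 and caspase-11. Gbp2, Gbp2b and Gbp5 are known to end in a CaaX box, the signal for a lipid tail that anchors the protein in membranes.

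In the mouse the family lies in a pair of clusters. Gbp5, Gbp7, Gbp3, Gbp2b and Gbp2 follow each other in this order on chromosome 3 between 142496934 and 142638008, all on the plus strand. Gbp8, Gbp9, Gbp4 and Gbp6 lie on chromosome 5 between 105012513 and 105295871, all on the minus strand (GRCm38, RefSeq gene ends). Gbp10 and Gbp11 also lie in the chromosome 5 cluster and are not among the members.

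Promoter windows of RefSeq (GRCm38.p6), from 250 bases before to 50 bases after an annotated start, were at hand for the 5 chromosome 3 genes. These windows are shown because all 5 genes rose with poly(I:C) and interferons act on such genes through short DNA elements. Whether interferon or these elements act on the genes in these cells was not tested. A pair of TTTC words separated by any 2 bases, the core of the interferon-stimulated response element (ISRE) bound by IRF proteins, was searched on both strands. The capitals mark every base of a match.
Gbp5: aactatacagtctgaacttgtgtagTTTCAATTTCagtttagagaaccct
Gbp7: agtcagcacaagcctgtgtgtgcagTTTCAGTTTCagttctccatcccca
Gbp3: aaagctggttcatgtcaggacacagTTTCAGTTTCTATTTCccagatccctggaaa
Gbp2b: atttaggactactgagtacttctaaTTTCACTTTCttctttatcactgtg
Gbp2: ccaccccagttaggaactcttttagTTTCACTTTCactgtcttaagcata

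These stretches are on the plus strand at chr3:142496744-142496793 (Gbp5), chr3:142530258-142530307 (Gbp7), chr3:142559974-142560029 (Gbp3), chr3:142594685-142594734 (Gbp2b) and chr3:142620579-142620628 (Gbp2). Each of the 5 genes had a match on the sense strand, and Gbp3 had 2 that overlap. The first matched base lay 45 bases before the start in Gbp3, 53 in Gbp7, 59 in Gbp2, 137 in Gbp2b and 165 in Gbp5. Distances here are from the annotated start of each window. The RefSeq gene begins upstream of that start in Gbp3, at 142560016, and in Gbp2b, at 142594816. Both matches are nearer to these gene starts and still lie upstream of them. In the GENCODE M21 annotation, Gbp2 begins at 142620602 and Gbp5 at 142493978, both upstream of the match. Of 32851 promoter windows of this length, 3.44% held a match, and of 27025 genes 3.99% had one in at least 1 window. A further window of Gbp3, at a downstream start, held none.

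The letters TTCNNNGAA, the core of the gamma-activated site (GAS), through which interferon gamma acts, read the same on both strands. They matched at 2 places each in Gbp5, 245 and 52 bases before the start, and in Gbp7, 106 and 87 bases before it, and not in these windows of Gbp3, Gbp2b and Gbp2. A match was found in 8.3% of all windows. The 5 genes are paralogs, so their windows are not independent of each other, and a match of letters is no measure of binding.

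**Figure D1:**
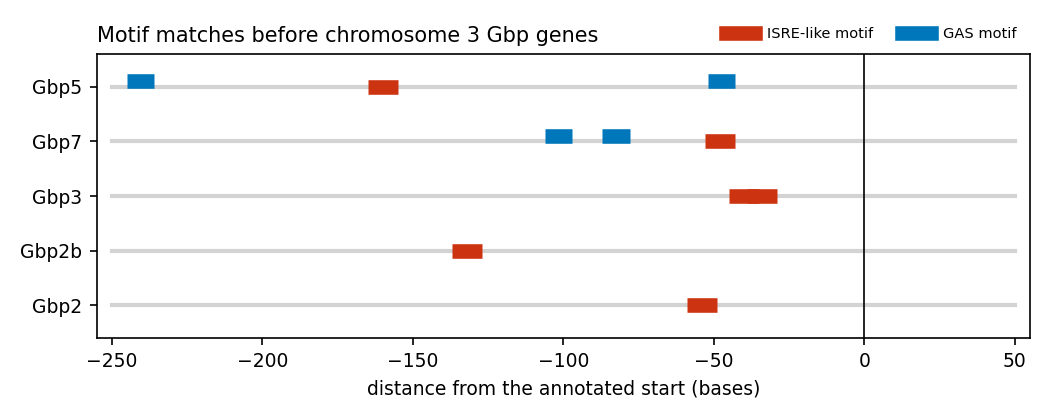
Positions of ISRE-like (red) and GAS (blue) matches in the promoter windows of the 5 chromosome 3 genes, with distance from the annotated start in bases on the x axis and a grey line for 1 window per gene (for Gbp3, the more upstream of its 2). Each of these 5 windows has an ISRE-like match, between 165 and 30 bases before the annotated start of the window. GAS matches are seen in Gbp5 and Gbp7.

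Every one of the 9 Gbp genes was higher in both treated libraries than in both untreated ones. Summed over the family, the level was 38.6 and 36.0 TPM without and 179 and 166 TPM with poly(I:C), a ratio of means of 4.62. The single genes differed widely around this figure, from 2.59-fold for Gbp9 to 59.5-fold for Gbp5 by the ratio of mean TPM.

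In limma, fitted across the 12520 genes whose mean reached 0.5 TPM, all 9 genes rose at an adjusted p under 0.05 (Benjamini-Hochberg over all genes tested) and each by 2-fold or more on the log2(TPM + 1) scale. Of all tested genes 28.4% rose and 32.4% fell, 5.69% rose 2-fold or more, and 38.9% had both treated libraries above both untreated ones. Groups without overlap in either direction were seen in 81.3% of tested genes. The limit on low values bears on this count: 6 members reached 0.5 TPM in untreated cells, while Gbp5, Gbp6 and Gbp7 passed it only through the treated libraries. Among the 377 tested genes with an untreated mean under 0.5 TPM, 72.7% rose and 28.4% rose at least 2-fold. The median log2 fold change of the 9 members was 1.78, against -0.02 over all tested genes, and the 3 low genes stand in it. Separate cultures are not named in the labels, so p reflects how these libraries scatter, and that scatter may be technical.

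**Figure D2:**
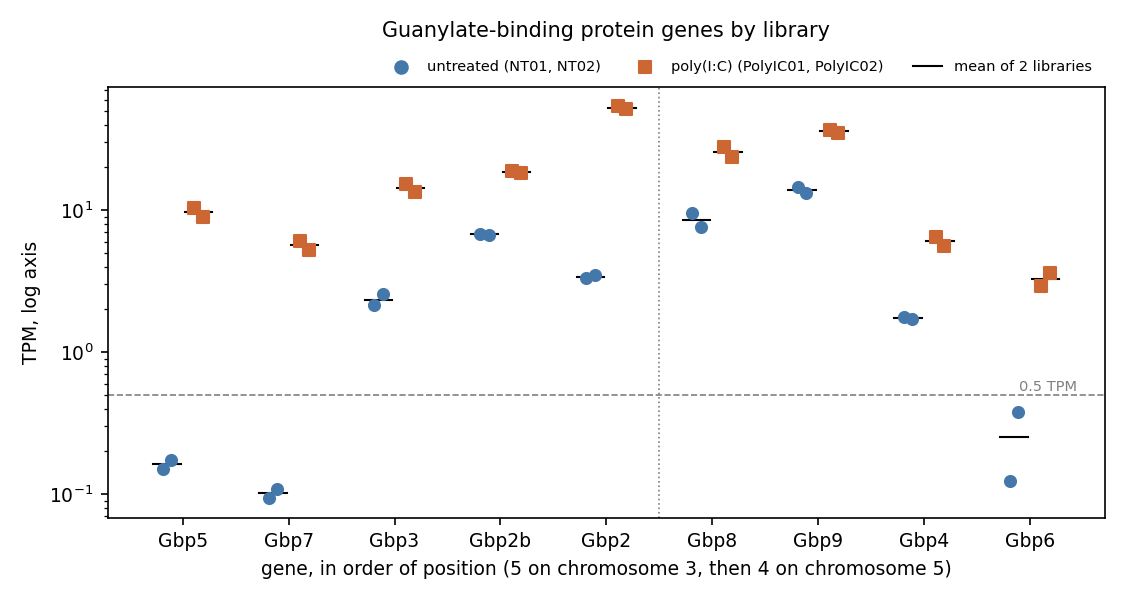
TPM of the 9 Gbp genes in each library (y axis, log scale), with untreated libraries as circles, poly(I:C) libraries as squares and the mean of 2 libraries as a bar. The groups do not overlap for any gene, and untreated Gbp5, Gbp7 and Gbp6 lie below the dashed line at 0.5 TPM.

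Gbp2 showed the largest change of the family on the log2(TPM + 1) scale and became its most abundant transcript. Its product gathers on the vacuole of Toxoplasma and takes part in AIM2 and caspase-11 activation. Gbp2 gave 3.35 and 3.48 TPM in untreated cells, against 53.9 and 51.5 TPM after poly(I:C). The libraries of each group lay close together, with means of 3.41 ± 0.0867 and 52.7 ± 1.71 TPM (SD). The ratio of means was 15.4, and limma gave a log2 fold change of 3.60 (95% interval 3.46 to 3.75, adjusted p = 1.00e-06), the 33rd largest rise among all tested genes. The gene moved from above 22.1% of tested genes in untreated cells to above 75.9% in treated ones.

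Gbp5 and Gbp7 went from near 0 to several TPM. Gbp5, which is known to promote assembly of the NLRP3 inflammasome, was at 0.151 and 0.175 TPM without and at 10.4 and 8.99 TPM with poly(I:C). Its log2 fold change was 3.20 (95% interval 2.94 to 3.45, adjusted p = 8.03e-06 in limma), the 53rd largest. Gbp7, which has been tied to oxidative and autophagic killing of bacteria, was at 0.0937 and 0.109 TPM and then at 6.07 and 5.27 TPM. It rose by 2.60 on this log2 scale (95% interval 2.34 to 2.85, adjusted p = 1.51e-05 in limma).

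For both genes the treated libraries lay far above the untreated ones, and the untreated level is so low that the size of the ratio is loosely set. The ratio of means was 59.5 for Gbp5 and 55.9 for Gbp7, while any treated over any untreated library gave 51.5 to 68.7 and 48.2 to 64.8. With a pseudocount of 0.1 in place of 1 TPM, the log2 fold changes became 5.22 and 4.84, more than 1.5 times the values above. On that scale, and by the ratio of TPM, Gbp5 and Gbp7 come before Gbp2.

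Gbp3 held a middle place in the chromosome 3 cluster. Its level was 2.14 and 2.55 TPM in untreated and 15.4 and 13.5 TPM in treated libraries, a ratio of means of 6.16. The log2 fold change was 2.21 (95% interval 1.95 to 2.47, adjusted p = 2.70e-05 in limma).

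Gbp2b, the gene long called Gbp1, moved least in its cluster. It was the most abundant chromosome 3 member in untreated cells, at 6.81 and 6.73 TPM, and reached 18.8 and 18.2 TPM with poly(I:C). The 2 libraries of a group differed by little, and the ratio of means was 2.74 (log2 fold change 1.33, 95% interval 1.18 to 1.48, adjusted p = 2.17e-05 in limma). Its neighbour Gbp2, whose RefSeq start lies just downstream, was lower than Gbp2b in both untreated libraries and higher in both treated ones.

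On chromosome 5, Gbp9 and Gbp8 were the most abundant members of the whole family before treatment, with all RefSeq transcripts summed. Without predicted transcripts, untreated Gbp9 was at 4.97 and 4.81 TPM, under Gbp8 (6.52 and 5.74) and Gbp2b (5.96 and 5.62). That step drops the predicted transcripts after quantification and does not reassign their reads, so it cannot settle the order of the genes. The values that follow are sums over all transcripts. Gbp9 was at 14.6 and 13.2 TPM and rose to 37.0 and 35.2 TPM, 2.59-fold (log2 fold change 1.31, 95% interval 1.15 to 1.48, adjusted p = 3.24e-05 in limma). Gbp8 was at 9.51 and 7.63 TPM and then at 27.7 and 23.9 TPM, 3.01-fold (log2 fold change 1.49, 95% interval 1.19 to 1.79, adjusted p = 0.000239 in limma). Both genes were expressed without poly(I:C) and rose by less than the family sum; whether the pair differ in their rise was not tested.

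Gbp4, whose product has been described as a brake on IRF7, went from 1.78 and 1.70 TPM to 6.46 and 5.60 TPM. This was a 3.46-fold change (log2 fold change 1.36, 95% interval 1.11 to 1.60, adjusted p = 0.000129 in limma). Irf7 itself, the transcription factor gene that drives interferon production, rose from 0.232 and 0.247 TPM to 41.4 and 37.5 TPM.

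Gbp6 was the least certain member. The untreated libraries gave 0.124 and 0.379 TPM, which differ from each other by about their mean, and the treated ones 2.94 and 3.61 TPM. The log2 fold change was 1.78 (95% interval 1.42 to 2.13, adjusted p = 0.000195 in limma) and became 3.36 with a pseudocount of 0.1 TPM. The ratio of means of 13.03 spans 7.76 to 29.1 over pairs of single libraries.

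**Figure D3:**
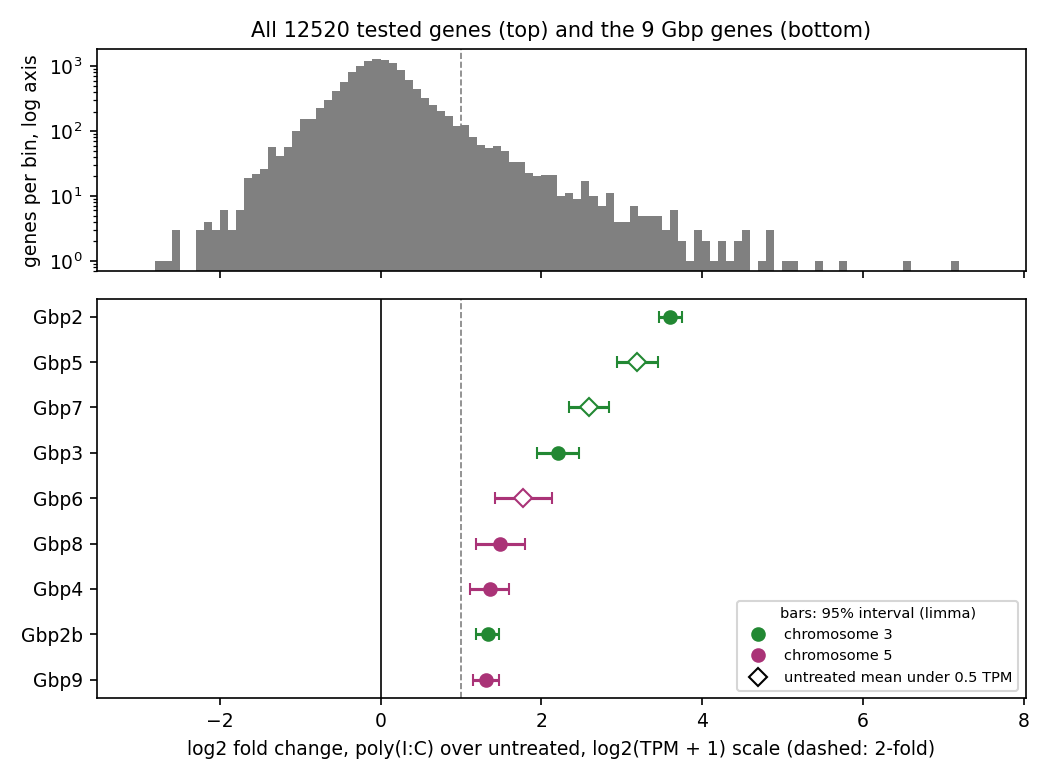
Log2 fold changes on the log2(TPM + 1) scale, for all 12520 tested genes as a histogram with a log count axis (top) and for each Gbp gene with its 95% interval from limma (bottom, green for chromosome 3 and magenta for chromosome 5). All 9 intervals lie right of the dashed line at 2-fold, and open diamonds mark the 3 genes with an untreated mean under 0.5 TPM.

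Because the members changed unequally, the make-up of the family shifted. In untreated cells the order by mean TPM was Gbp9, Gbp8, Gbp2b, Gbp2, Gbp3, Gbp4, Gbp6, Gbp5 and Gbp7, and the values of neighbours overlapped between libraries for Gbp6 and Gbp5 alone. With poly(I:C) the order was Gbp2, Gbp9, Gbp8, Gbp2b, Gbp3, Gbp5, Gbp4, Gbp7 and Gbp6, and of these neighbours Gbp4 and Gbp7 overlapped. Predicted transcripts count in both orders. Without them, and with their reads not reassigned, Gbp9 came below Gbp8 and Gbp2b in every library.

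Gbp2 made up 8.69% and 9.66% of the summed Gbp level in the untreated libraries and 30.2% and 31.1% in the treated ones. The share of Gbp9 went from 37.9% and 36.8% to 20.7% and 21.2%. Its TPM rose over the same comparison, so the smaller share reflects unequal rises in the sum.

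The chromosome 3 genes together held 32.5% and 36.3% of the family level without and 58.5% and 58.8% with poly(I:C). Their summed level went from 12.5 and 13.04 TPM to 105 and 97.4 TPM, 7.90-fold. The chromosome 5 genes went from 26.0 and 22.9 TPM to 74.1 and 68.3 TPM, 2.91-fold. The 2 clusters thus changed places in the sum, but Gbp2 alone gave 53.9 and 51.5 TPM of the treated chromosome 3 level. Without Gbp2 that level stays below the chromosome 5 level. Without predicted transcripts the untreated lead of chromosome 5 narrows. Gbp2b on chromosome 3, at 2.74-fold, rose by a smaller ratio than Gbp8, Gbp4 and Gbp6 on chromosome 5. No p was computed for the difference between clusters: with 2 libraries a side, the smallest p of a 2-sided exact permutation test is 0.333.

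**Figure D4:**
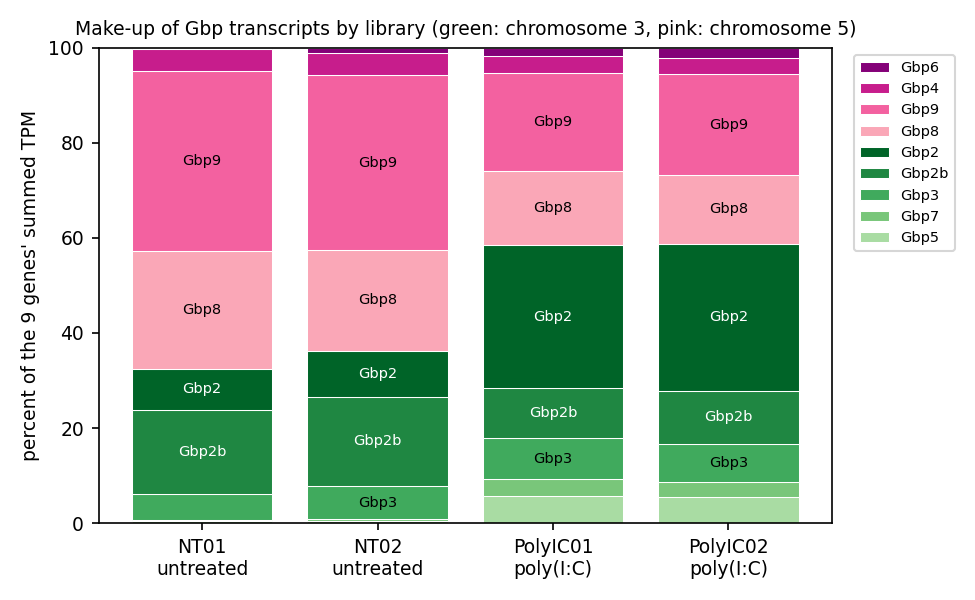
Share of each Gbp gene in the summed TPM of the 9 genes (y axis, percent) in each of the 4 libraries, green for chromosome 3 and pink for chromosome 5. Gbp9 is the largest share in both untreated libraries and Gbp2 in both treated ones. All RefSeq transcripts are summed, and Gbp9 falls below Gbp8 and Gbp2b when predicted ones are left out without reassigning their reads.

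The table lists several RefSeq transcripts for 7 of the genes, and for some the split between them differed with treatment. Gbp7 has 2 curated transcripts. The minor one held 1.25% and 0.922% of the gene's TPM in untreated cells and 29.3% and 31.8% in treated cells, going from 0.00117 and 0.00101 TPM to 1.78 and 1.67 TPM. The untreated shares rest on a gene total of about 0.1 TPM. In Gbp3 the main curated transcript held 83.3% and 87.9% before and 71.5% and 74.8% after, and 2 predicted transcripts listed at 0 in both untreated libraries held 1.37% to 6.02% in the treated ones. In Gbp2b, the curated transcript stayed between 82.9% and 88.6% in all 4 libraries.

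Elsewhere the split varied between libraries of 1 group, so it says little on treatment. In Gbp4 a curated transcript held 10.5% of the gene in NT01 and 69.4% in NT02. A predicted transcript of Gbp9 held 13.4% in NT01 and 42.1% in NT02, then 46.3% in PolyIC01 and 24.2% in PolyIC02, while the summed level of Gbp9 was steady within each group. The curated Gbp6 transcript was at or near 0 in both untreated libraries and held 53.1% and 41.7% of the gene in the treated ones.

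**Figure D5:**
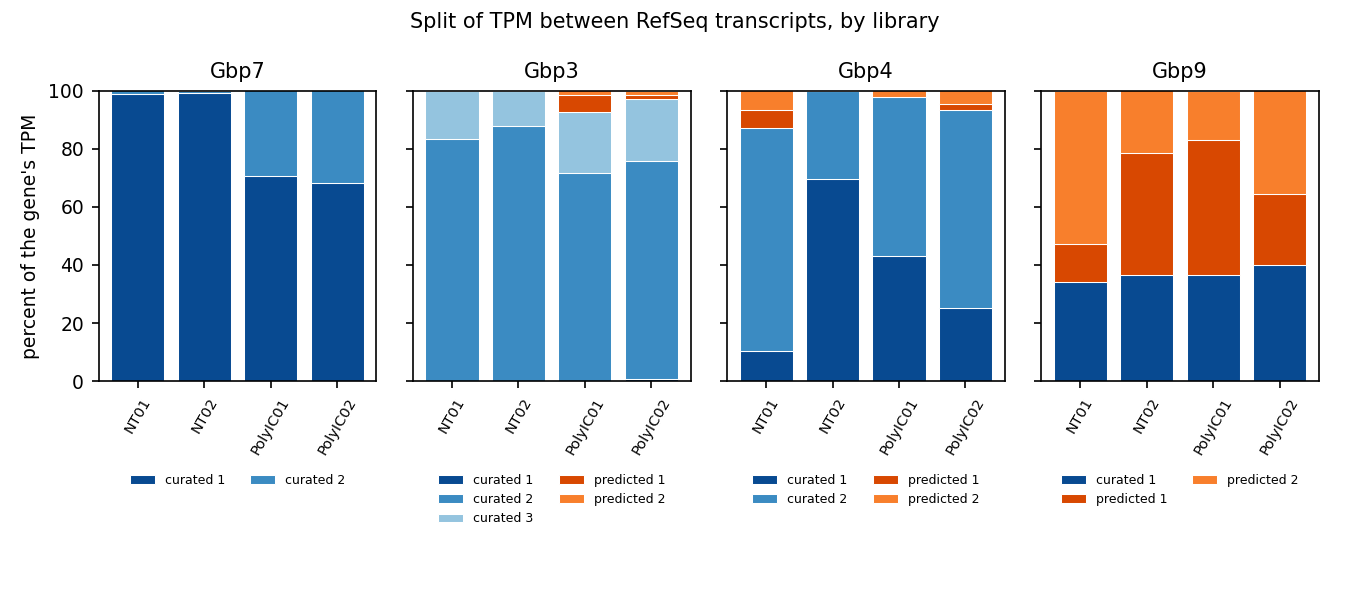
Percent of each gene's TPM (y axis) given to each RefSeq transcript in the 4 libraries, blue for curated and orange for predicted transcripts, for Gbp7, Gbp3, Gbp4 and Gbp9. The minor Gbp7 transcript is a sliver in NT01 and NT02 and about 30% in the treated libraries, while Gbp4 and Gbp9 splits differ between libraries of the same group.

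Close copies limit how far single members can be told apart, and this was measured on GENCODE M21 transcripts (GRCm38) as the share of 31-base words that occur in no other gene. The share was 98.0% for Gbp5, 95.8% for Gbp2b, 95.1% for Gbp2, 92.9% for Gbp3 and 85.2% for Gbp7. It was 78.8% for Gbp9, 77.3% for Gbp4 and 65.0% for Gbp8. For Gbp6 it was 5.56%: 93.9% of its words also occur in Gm43302, a GENCODE gene that overlaps it on the same strand, and 72.9% in Gbp10. The level of Gbp6 may therefore hold reads of these copies. GENCODE also draws Gbp8 and Gbp9 as genes that reach over Gbp4 on the same strand, whereas their RefSeq gene ends do not overlap. The deposited values are of RefSeq transcripts, in which shared words were not counted. How far copies blur the split of TPM among these members is therefore uncertain.

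All 16 listed genes that carry or restrain interferon signals to Gbp promoters passed the limit on low values. Among them 12 rose, 6 by 2-fold or more, and 1 fell, while Ifnar2, Ifngr1 and Jak1 did not pass. The median log2 fold change was 0.61. Of all tested genes 28.4% rose, 32.4% fell and 5.69% rose 2-fold or more. Apart from Irf7 (log2 fold change 5.03), the largest changes were in Usp18, a negative regulator of the interferon receptor (2.91), and Stat2 (2.00). With an untreated mean of 0.240 TPM, Irf7 passed the 0.5 TPM limit only through the treated libraries. Its log2 fold change became 6.86 with a pseudocount of 0.1 TPM. Irf1, an interferon-induced factor that itself drives Gbp genes, went from 82.2 and 73.3 TPM to 224 and 216 TPM (1.49).

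Other parts of this pathway moved less. Irf9 rose by 0.52 and the receptor gene Ifnar1 by 0.29 on the log2(TPM + 1) scale. The type II receptor gene Ifngr1 was at 530 and 540 TPM in untreated and 504 and 515 TPM in treated libraries (a change of -0.07 on that scale, 95% interval -0.13 to -0.01, adjusted p = 0.0554 in limma). Irf8 was at 2482 and 2477 TPM and then at 2558 and 2639 TPM (0.07, adjusted p = 0.0497 in limma), a call lost in 7 of 12 alternative settings, among them without NT01, without NT02 and without PolyIC02. The 1 gene that fell, Tyk2, did not pass without NT01 or without PolyIC02, leaving 0 that fell.

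The list of immunity-related GTPases holds small GTPases that act with GBPs on parasite vacuoles and also Gvin1, a very large interferon-inducible GTPase of another family. Of its 9 tested genes 8 rose, Gvin1 among them, all at least 2-fold, and Irgq did not pass. Among all tested genes 28.4% rose and 5.69% rose 2-fold or more. The median log2 fold change was 2.55. The largest was in Tgtp1, from 1.43 and 1.71 TPM to 76.5 and 73.0 TPM (4.88), followed by Tgtp2 (3.44) and Gvin1 (3.38). The regulatory members Irgm1 (2.55), Igtp (1.79) and Irgm2 (1.77), which steer GBPs away from the cell's own membranes, rose from levels of 9.59 to 24.9 TPM in the untreated libraries. Tgtp1 and Tgtp2 are close copies, and their separate values are uncertain.

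Of the 11 tested inflammasome and pyroptosis genes that act downstream of GBPs, 9 rose, 2 by 2-fold or more. The shares over all tested genes were 28.4% and 5.69%. Il18 fell and Nlrp1b did not pass, and the median change was 0.52. Casp4, which encodes caspase-11, the sensor of cytosolic lipopolysaccharide, was at 0.143 and 0.0981 TPM and then at 12.9 and 8.96 TPM (log2 fold change 3.39 with an SE of 0.167, adjusted p = 3.29e-05 in limma). Its untreated level lies under 0.5 TPM, as in Gbp5 and Gbp7, and with a pseudocount of 0.1 TPM the value became 5.63. Il1b rose by 4.84, more than Casp4 on the log2(TPM + 1) scale and less with a pseudocount of 0.1 TPM (5.24) or by the ratio of mean TPM, 39.0 against 90.6. Casp1 rose by 0.99, the pore-forming effector Gsdmd by 0.96 and the DNA sensor Aim2 by 0.52. Aim2 was already at 73.9 and 70.4 TPM in untreated cells.

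CaaX-processing enzymes and the tail-binding Pde6d changed in shares near those of all tested genes, of which 28.4% rose and 32.4% fell. Pggt1b and Rce1, 2 of the 7 tested, rose and 3 fell, none by 2-fold, and Fntb and Pde6d missed the threshold; the median change was -0.06. The falls were in the protease gene Zmpste24 (-0.43), in Fnta, the subunit shared by farnesyl and geranylgeranyl transferase (-0.42), and in the methyltransferase gene Icmt (-0.26). Without PolyIC01 or without PolyIC02, 1 gene rose in place of 2.

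The autophagy conjugation system and ubiquitin adaptors, which help load GBPs onto vacuoles, were mixed. Among the 15 tested genes 7 rose, Atg5 and Atg7 fell and 6 missed the threshold (median 0.13). Over all tested genes, 28.4% rose and 32.4% fell. The largest rises were in Rnf213, a giant ubiquitin ligase that coats bacteria (2.90), the adaptor Sqstm1 (1.12) and Atg16l1 (0.59). The number that fell was 1 without NT01 or without PolyIC02 and 0 without PolyIC01.

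Among other dynamin superfamily genes, 4 of 11 rose, 2 fell and 5 missed the threshold (median 0.05). Over all tested genes 28.4% rose and 32.4% fell, so the counts alone say little on this list. The antiviral GTPase genes Mx1 (2.87) and Mx2 (2.08) rose at least 2-fold, and Dnm1 rose by 0.62, from 1.62 and 1.73 TPM to 3.52 and 2.73 TPM. With curated transcripts only, Dnm1 did not pass (adjusted p = 0.357 in limma). The fold changes in these list paragraphs are on the log2(TPM + 1) scale.

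The 5 genes closest to the family's mean course over the 4 libraries, by Euclidean distance of centred log2(TPM + 1) values, were Bcl3 (0.0404), A530064D06Rik (0.0497), Phf11a (0.0670), Bcl2a1b (0.0691) and Fcgr1 (0.0726). Their log2 fold changes lay between 2.06 and 2.16, beside 2.10 for the mean of the 9 members. Fcgr1 is also on the macrophage and monocyte list, and with an untreated mean of 0.327 TPM it passed the limit only through the treated libraries. With 4 libraries this likeness reflects little more than the size of the change.

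The cells carried markers of type 1 conventional dendritic cells (cDC1) in both groups. All 13 genes on that list were tested, of which 5 rose and 5 fell, none at least 2-fold upward. Over all tested genes 28.4% rose and 32.4% fell, so the counts alone say little on this list. Its summed level was 5147 to 5364 TPM in all 4 libraries. The count that rose was 3 without NT01, NT02 or PolyIC01 and 2 without PolyIC02. Irf8 (2477 to 2639 TPM) and Naaa (1124 to 1230 TPM) made up most of the summed level, so it says little on the other markers. Among the 13 genes Xcr1 rose by 0.78, while Cd24a fell by 1.42 and Tlr3 by 0.81 on the log2(TPM + 1) scale. The others that fell were Flt3 (-0.74), Cd8a (-0.35) and Batf3 (-0.30), and Itgae was at most 0.918 TPM in every library. The summed macrophage and monocyte list was 314 to 319 TPM in untreated and 613 to 632 TPM in treated libraries, alongside the Gbp genes. Of its 8 tested genes 6 rose, led by C1qb (3.24), Ms4a7 (3.12) and C1qa (2.18), and Lyz2 fell by 1.07 on that scale. The others that rose were C1qc (1.88), Cd14 (0.51) and Fcgr1, which encodes the receptor CD64, from 0.356 and 0.299 TPM to 4.76 and 4.66 TPM. Adgre1, which encodes F4/80, was at 0.972 and 0.871 TPM without and 1.07 and 1.70 TPM with poly(I:C) and did not pass (adjusted p = 0.13 in limma). The other 2 genes of the list were under the limit: Csf1r was at 0.272 and 0.469 TPM without and listed at 0 in both libraries with poly(I:C), and Mertk was at most 0.0387 TPM in every library. The part of this list in the Gbp values was not tested.

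Other lineages were low. The sums were 18.0 to 19.1 and 43.7 to 44.3 TPM for 6 cDC2 markers, of which 2 of 4 tested rose (Cd4 by 2.33 and Sirpa, listed at 0 in NT01, by 1.34, or 3.25 with a pseudocount of 0.1 TPM), Itgam fell by 0.82 on the log2(TPM + 1) scale, and Cd209a was at 0. For 6 plasmacytoid markers the sums were 23.7 to 25.6 and 23.0 to 23.7 TPM, and of 3 tested Pacsin1 rose (1.87, or 3.15 with that pseudocount) and Cox6a2 fell by 0.39. Sums were 0.888 to 1.21 and 2.31 to 2.49 TPM for 5 T cell markers, with Cd3e and Cd3g at 0, and 3.36 to 3.79 and 5.89 to 7.05 TPM for 5 B cell markers. Among these, Cd3d (0.47, or 0.82 with that pseudocount) and Ms4a1 (0.73) rose, the former not without NT02 or PolyIC01. For 6 epithelial and fibroblast markers the sums were 10.5 to 11.7 and 7.85 to 7.90 TPM. Cdh1 fell by 0.69 (by 1.45 with that pseudocount) and Epcam by 0.36 there, and Krt8, Col1a2 and Pdgfra were listed at 0. With untreated means of 0.183 and 0.360 TPM, Sirpa and Pacsin1 passed the 0.5 TPM limit only through the treated libraries. In bulk RNA, fewer cells of a type and less RNA per cell cannot be told apart.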

How the data were processed

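Polyadenylated RNA of untreated and poly(I:C)-treated MuTuDC1940 cells was sequenced from stranded libraries, per the labels' protocols. Per the submitters' processing notes, the build named is GRCm38 and the tools named, with no role, are kallisto (0.42.4) and bcl2fastq (2.20.0.422). The deposited table gives 1 value per RefSeq transcript; its name says FPKM, but each column used sums to 1000000, so the authors' deposited values were taken as TPM. TPM keeps no depth, so depth per library is unknown and no counting interval is given. Whether strand was used in quantification is not stated in the labels. The header names 5 of its 6 value columns and leaves the cell following NT01 empty; the 4 columns whose group is the same under either reading were used, the other 2 columns were not, and replicate numbers are not settled.

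Of 107384 transcripts, 86722 (80.8%) matched a symbol in the RefSeq gene table (GRCm38.p6) without version, holding 91.8% to 92.2% of TPM, and were summed per gene. Genes whose mean reached 0.5 TPM were tested on log2(TPM + 1), which understates changes of low genes, with limma 3.58.1 (R 4.3.3; trend and robust moderation, 2 residual degrees of freedom, Benjamini-Hochberg over 12520 genes). Simulated data with known rises served to test this fit. The rises were placed only in genes above the untreated levels of Gbp3, Gbp4, Gbp5, Gbp6 and Gbp7. That test therefore does not cover these members, nor falls. Tables and plots used matplotlib 3.10.9, numpy 2.4.6 and pandas 2.3.3 under Python 3.11.15. Members and lists were chosen with earlier results of these data known. Named genes are all members, up to 3 passing genes per list with the largest change, 12 set genes (1 of them is not reported here), and the 5 most like the family's mean course; Tyk2, Ifnar2, Jak1, Irgq, Pggt1b, Rce1, Fntb, Pde6d, Atg5, Atg7, Il18, Nlrp1b, Lyz2, C1qc, Cd14, Adgre1, Csf1r, Mertk and markers at 0 were named after their values were seen. Alternatives varied the pseudocount, the limit, the moderation, the scaling, the transcripts and the libraries.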

Additional observations from a re-analysis of the deposited data

How the results depend on the processing

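All 9 Gbp genes rose under each of the 12 alternative settings in limma, with adjusted p of at most 0.00199, and their log2 fold changes ranged from 1.25 to 1.38 for Gbp9 and from 3.10 to 5.22 for Gbp5. In 4 of these settings a library is left out and 1 group has a single library, which is assumed to vary like the other group, so their p-values add little. The ratio of summed Gbp levels was 4.45 to 4.79 when 1 library was left out and 5.66 with curated transcripts only, which drop most of the Gbp9 level. Across all genes 2561 to 3756 rose and 3402 to 4524 fell, beside 3556 and 4062. No paired analysis was possible because the shifted header leaves the replicate numbers of the columns unsettled. Of the interferon signalling list, 0 in place of 1 fell with a pseudocount of 0.5 or 0.1, without a filter, without trend or robust moderation and with curated transcripts, 2 with quantile normalization, and 0 to 1 when leaving out 1 library. Of the cDC1 list, 3 rose without a filter, with rescaled medians or with curated transcripts, 2 without trend or robust moderation, and 2 to 3 when leaving out 1 library. Of the CaaX enzymes, 1 rose without a filter, 0 with curated transcripts and 1 to 2 when leaving out 1 library. Without a filter 2 macrophage markers fell and 2 T cell markers rose. With a limit of 1 TPM 1 epithelial marker fell, and with curated transcripts 2 dynamin superfamily genes rose. Leaving out 1 library gave 0 to 2 falls of the autophagy list, 0 to 2 rises of T cell markers and 1 to 2 falls of plasmacytoid markers. Neighbours of the clusters that had not passed changed sign: Tspan5 to 0.28 with curated transcripts and Gtf2b to 0.0059 without NT02, with -0.0115 as its lowest value when leaving out 1 library. The cause of these changes was not tested. Depth is unknown, so what it limits cannot be given, and members under 0.5 TPM have the least certain ratios.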

Other observations

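Tested genes beside the clusters, chosen by position, moved in both directions and by less upward than any Gbp gene. Downstream of Gbp2 on chromosome 3, Kyat3 (63011 bases away) fell from 3.42 and 3.23 TPM to 1.037 and 1.010 TPM, a log2 fold change of -1.09 (adjusted p = 0.000194 in limma). Gtf2b, a general transcription factor gene 127239 bases away, was at 94.7 and 95.8 TPM without and 95.06 and 95.05 TPM with poly(I:C). Pkn2, further downstream, rose by 0.37. On the other side Pdlim5, 101215 bases before Gbp5, fell by 0.46 on the log2(TPM + 1) scale. Further out, Rap1gds1 fell by 0.21, a call lost in 1 of 12 alternative settings, and Tspan5 did not pass. Beside the chromosome 5 cluster, Abcg3, 29702 bases from Gbp8, was at 2.67 and 2.26 TPM and then at 2.95 and 3.05 TPM. It did not pass (log2 fold change 0.21, adjusted p = 0.117 in limma). Gm42141 and Gm42144, beyond Gbp6, did not pass either. Spp1, 571460 bases from Gbp8, fell from 10.2 and 10.1 TPM to 4.79 and 4.88 TPM (-0.93, adjusted p = 0.000129 in limma). Zfp951, on the same side, rose by 0.27 (adjusted p = 0.0411 in limma), a call lost in 6 of 12 alternative settings, among them without NT02, without PolyIC01 and without PolyIC02. Lrrc8b, 119335 bases beyond Gbp6, went from 13.2 and 12.1 TPM to 10.7 and 10.2 TPM (-0.25), a call lost in 4 of 12 alternative settings, among them without NT01, without PolyIC01 and without PolyIC02.

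The chromosome 5 cluster also holds Gbp10 and Gbp11, which stayed under the expression limit. Gbp10 was at 0.0241 and 0.0168 TPM without and 0.191 and 0.140 TPM with poly(I:C). Gbp11, annotated as a transcribed pseudogene, was listed at 0 in both untreated libraries and at 0.0131 and 0.0247 TPM in the treated ones.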
